A study of Mus musculus with 9 samples.

Results

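The subunits of the proteasome and the factors that assemble and regulate it were followed in mouse liver RNA. Members were the Ensembl features whose symbol reads Psm, 1 letter from a to g and a number, 48 of 55414 in the table. They comprise 14 genes of the constitutive 20S core, 17 of the 19S cap, the 3 immunoproteasome genes Psmb8, Psmb9 and Psmb10, 2 genes of tissue-specific 20S subunits, 3 assembly factors of the cap, 5 activators or inhibitors of the core and 4 assembly chaperones of the core. A mean of at least 1 TPM, a measure of transcript abundance per length and library total, over all libraries was reached by 46 members, and these were tested.

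The 9 libraries came from livers of NSG mice, labelled WT for genotype, in 3 groups of 3. One group received tail vein injections of extracellular vesicles (EVs) shed by the triple-negative breast cancer line MDA-MB-231, and another those of MCF-10A, a breast epithelial line that forms no tumours; both lines are human. The third received PBS. Injections ran for 5 weeks in all 3 groups. NSG mice lack mature T, B and NK cells, so every group shares this deficiency. The labels do not say that each sample was a separate mouse, so p-values measure the spread between these samples only.

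The proteasome degrades proteins tagged with ubiquitin. Its 20S core is a barrel of alpha and beta rings, with the proteolytic sites on Psmb5, Psmb6 and Psmb7, and the 19S cap recognises, unfolds and feeds in the substrate. Interferon gamma induces Psmb8, Psmb9 and Psmb10, which replace Psmb5, Psmb6 and Psmb7 in newly built cores and shift the peptides made for MHC class I. When proteasome activity falls, the transcription factor NRF1, encoded by Nfe2l1, raises subunit genes through antioxidant response elements.

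Promoter windows of RefSeq (GRCm38.p6), from 250 bases before to 50 bases after each annotated start, were available for 40 of the 48 members. Those printed belong to catalytic subunits, to an interferon-responsive activator and to the cap gene with the widest spread among libraries, and each holds 1 match to a searched motif, in capitals. They lie at chr17:34187281-34187580 on the minus strand (Psmb9), chr17:34197945-34198244 on the plus strand (Psmb8), chr14:54617946-54618245 on the minus strand (Psmb5), chr11:70525107-70525406 on the plus strand (Psmb6), chr14:55578244-55578543 on the plus strand (Psme1) and chr7:140882144-140882443 on the plus strand (Psmd13). All are written 5′ to 3′ along the gene.
Psmb9: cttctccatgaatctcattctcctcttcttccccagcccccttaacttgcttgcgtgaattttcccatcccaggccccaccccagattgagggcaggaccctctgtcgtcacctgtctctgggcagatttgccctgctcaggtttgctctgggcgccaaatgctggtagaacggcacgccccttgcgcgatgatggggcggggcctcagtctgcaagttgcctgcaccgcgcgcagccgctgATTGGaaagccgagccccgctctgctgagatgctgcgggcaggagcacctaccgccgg
Psmb8: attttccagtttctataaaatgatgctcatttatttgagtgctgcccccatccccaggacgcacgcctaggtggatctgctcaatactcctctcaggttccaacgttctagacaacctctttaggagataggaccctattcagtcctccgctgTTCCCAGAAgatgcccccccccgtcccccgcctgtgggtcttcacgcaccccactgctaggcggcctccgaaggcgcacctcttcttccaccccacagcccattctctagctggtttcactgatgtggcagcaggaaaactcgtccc
Psmb5: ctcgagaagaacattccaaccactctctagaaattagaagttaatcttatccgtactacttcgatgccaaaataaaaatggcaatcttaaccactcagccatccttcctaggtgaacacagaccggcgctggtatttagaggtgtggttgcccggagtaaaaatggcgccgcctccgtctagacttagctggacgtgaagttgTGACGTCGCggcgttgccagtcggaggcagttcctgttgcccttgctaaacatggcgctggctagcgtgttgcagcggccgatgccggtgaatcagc
Psmb6: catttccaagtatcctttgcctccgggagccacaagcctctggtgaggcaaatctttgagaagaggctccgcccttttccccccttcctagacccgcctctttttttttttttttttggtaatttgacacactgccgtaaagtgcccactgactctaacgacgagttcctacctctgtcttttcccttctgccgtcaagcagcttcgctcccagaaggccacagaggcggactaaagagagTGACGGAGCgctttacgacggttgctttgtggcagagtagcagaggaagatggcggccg
Psme1: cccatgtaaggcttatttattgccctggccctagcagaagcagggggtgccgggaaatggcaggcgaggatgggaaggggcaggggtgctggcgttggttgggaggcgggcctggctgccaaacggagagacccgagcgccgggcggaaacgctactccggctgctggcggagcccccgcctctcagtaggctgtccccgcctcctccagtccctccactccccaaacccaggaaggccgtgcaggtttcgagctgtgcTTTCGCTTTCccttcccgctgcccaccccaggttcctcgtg
Psmd13: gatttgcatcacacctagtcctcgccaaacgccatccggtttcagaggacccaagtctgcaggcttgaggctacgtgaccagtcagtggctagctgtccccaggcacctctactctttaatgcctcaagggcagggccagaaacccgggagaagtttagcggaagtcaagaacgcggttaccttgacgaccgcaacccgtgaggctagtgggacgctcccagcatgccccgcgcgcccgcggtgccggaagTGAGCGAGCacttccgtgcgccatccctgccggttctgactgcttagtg

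Capitals mark CCAAT on the opposite strand in Psmb9, TTCNNNGAA, the form of an interferon gamma activated site, in Psmb8, and TGACNNNGC, a form of the antioxidant response element, in Psmb5 and Psmb6. In Psme1 they mark GAAA, any 2 bases and GAAA, the form of an interferon regulatory factor element, on the opposite strand, and in Psmd13 TGAGNNNGC, the other form of the antioxidant response element. Both strands were searched, and a match is a description of the letters only. A member with several windows was counted once, so the shares of members are per gene and those of all genes per window. TGACNNNGC was in a window of 6 of the 40 members (15.0%) and in 12.4% of 32851 windows of all genes. TGAGNNNGC was in 12 (30.0%) and 17.6%, CCAAT in 14 (35.0%) and 37.4%, the interferon regulatory factor form in 5 (12.5%) and 3.44%, and TTCNNNGAA in 3 (7.5%) and 8.30%. The windows of Psmb10 and Psme2 hold none of the 5 motifs. Psmb9 and the peptide transporter gene Tap1 are read away from each other, with starts 226 bases apart, so their windows share 275 bases.

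The liver label was checked against marker genes. The hepatocyte list, with Alb at 13114 to 65814 TPM, was high in every library, and 10 lymphocyte markers summed to at most 3.03 TPM, with Cd3g at 0 throughout. MDA-MB-231 EV 3 and PBS 1 differed from their own groups, with Xist at 273 TPM in MDA-MB-231 EV 3, 320.2 TPM in PBS 1 and at most 74.9 TPM elsewhere. PBS 1 had 27.1% of its Ensembl TPM on mitochondrially encoded genes, against 5.02% to 12.4% in the other 8. In MCF-10A EV 1 the 10 markers of other leukocytes summed to 5361 TPM, against 39.0 to 244 TPM elsewhere. The 8 markers of Kupffer cells and macrophages summed to 1402 TPM there, against 203 to 509 TPM elsewhere. Of these 8, Clec4f went the other way, at 0.61 TPM against at least 96.5 TPM, while Marco was at 804 TPM against at most 120 TPM. The part of these features in the values that follow was not tested unless a value is given beside them. TPM keeps no read depth, so the depth is unknown. In bulk tissue, fewer cells of a type and less RNA per cell cannot be told apart.

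Levels differed widely between members. Over the 9 libraries Psmb6, the core subunit with caspase-like activity, had the highest mean level, 261 TPM, followed by the structural beta subunit Psmb3 at 193 TPM and the activator subunit Psme2 at 188 TPM. The lowest mean of a tested member was that of Psmd10, the cap assembly factor also called gankyrin, at 4.53 TPM. The untested pair were Psma8, the alpha subunit of testis, at no more than 0.77 TPM, and Psmb11, the beta subunit of thymic cortical epithelium, at no more than 0.01 TPM. Annotated pseudogenes and the retrocopy Psme2b were at no more than 0.43 TPM.

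The spread between libraries differed between subcomplexes. The highest library was a median of 2.92 times the lowest over the 46 tested members, and 4.65 times over the 12017 tested genes above 0 everywhere. This ratio was 4.01 for the 20S core, 3.04 for the 19S cap and 2.29 for the 3 immunoproteasome genes. PBS 1 was the lowest library for 26 of 46 members (56.5%), and for 20.4% of the 12142 tested genes with a single lowest library. MDA-MB-231 EV 1 was the highest library for 14 members, and for 26.9% of tested genes with a single highest one.

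**Figure D1:**
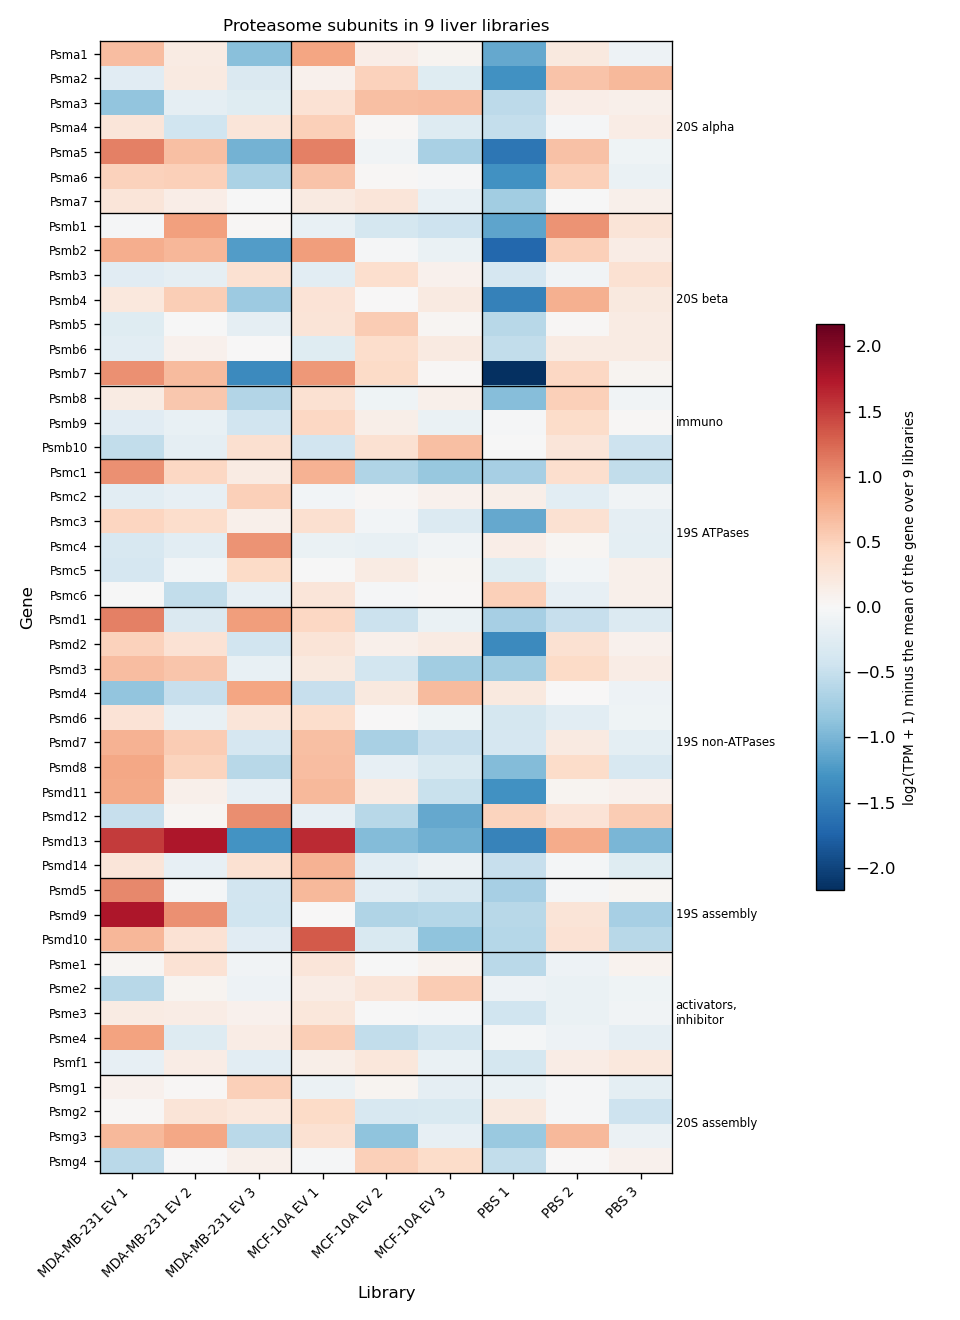
Each row is a tested member and each column a library, with colour giving log2(TPM + 1) minus the gene's mean over 9 libraries; black lines separate groups and subcomplexes. PBS 1 is lowest for 26 of 46 members, and Psmd13 spans the widest range.

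No member passed in any comparison. For MDA-MB-231 vesicles over PBS, limma called 0 of 46 members at an adjusted p under 0.05, and 0.00% of the 12860 genes tested. For MDA-MB-231 over MCF-10A vesicles it called 0 members and 0.218% of genes, and for MCF-10A vesicles over PBS 0 members and 0.194% of genes. With PBS 1 left out, it called 0 members and 24 of 12717 genes for MDA-MB-231 vesicles over PBS. Same-numbered libraries of the 2 vesicle groups deviated together (r from 0.110 to 0.436), but a different-numbered pair reached 0.116. The labels give no shared batch or day. With the replicate number as a block limma called 0 members and 15 genes between these groups, beside 28 without it. With the block and those 2 groups alone it called 0 members and 12 genes. A single member in each had an unadjusted p under 0.05, where 1.55%, 3.83% and 3.20% of all genes did. These were Psmd1, Psma3 and Psmd12, each with a limma adjusted p of 1. No other tool was run on these TPM values. The comparisons share groups, so their counts are not independent.

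**Figure D2:**
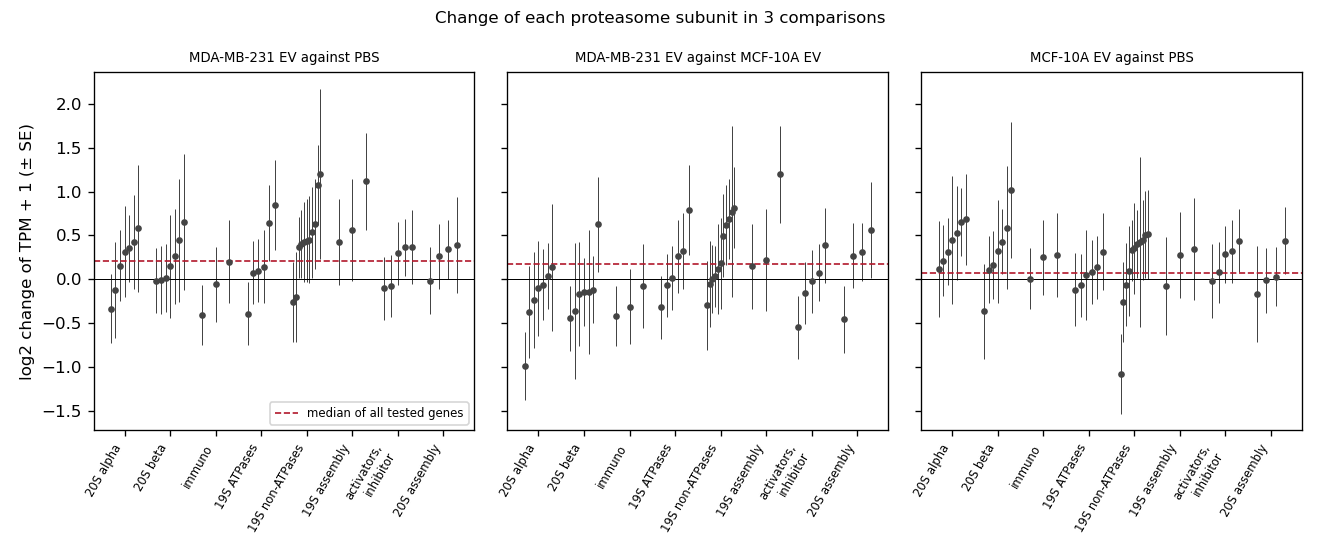
Points are the log2 change of TPM + 1 of each tested member, with the standard error as a line, by subcomplex and in order of size within it; the dashed line is the median of all tested genes. For MCF-10A vesicles over PBS 13 of the 14 core genes lie above 0 (56.8% of all tested genes), or 7 without PBS 1. For MDA-MB-231 over MCF-10A vesicles 3 of the 14 do (65.0% of all tested genes), or 8 without MDA-MB-231 EV 3.

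The immunoproteasome genes gave no called difference. Psmb8, which takes the place of Psmb5, was at 69.5, 93.3 and 39.2 TPM in the MDA-MB-231 vesicle libraries, 78.0, 57.7 and 66.7 TPM in the MCF-10A vesicle libraries and 31.8, 88.5 and 58.6 TPM in the PBS libraries. The groups overlap, with MDA-MB-231 EV 3 and PBS 1 the lowest of all 9. Psmb10, which takes the place of Psmb7, was at 54.3, 69.0 and 101 TPM with MDA-MB-231 vesicles, 59.0, 99.1 and 124 TPM with MCF-10A vesicles and 78.6, 94.3 and 57.6 TPM with PBS. These groups overlap too.

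Psmb9, which takes the place of Psmb6, was at 13.2, 14.1 and 11.6 TPM in the MDA-MB-231 vesicle libraries, 22.0, 17.4 and 14.2 TPM in the MCF-10A vesicle libraries and 15.5, 21.2 and 16.2 TPM in the PBS libraries. All 3 MDA-MB-231 vesicle values lie below those of both other groups, by a small margin against MCF-10A EV 3. The means were 13.0 ± 1.30, 17.9 ± 3.91 and 17.6 ± 3.12 TPM with MDA-MB-231 vesicles, MCF-10A EVs and PBS (SD, n = 3 each). The log2 change was -0.41 ± 0.34 (SE) against PBS and -0.42 ± 0.34 against MCF-10A EV, both with a limma adjusted p of 1. Without MCF-10A EV 1 the change against MCF-10A EV was -0.26. Groups separated in this direction for 0.801% of all tested genes against PBS and for 1.80% against MCF-10A EV. Psmb9 shares exon sequence with Tap1 on the opposite strand, and whether the counting used strand is not stated in the labels, so reads of both cannot be told apart.

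The constitutive catalytic genes were no more separated. Psmb5, the chymotrypsin-like subunit, was at 63.7, 76.2 and 66.9 TPM in the MDA-MB-231 vesicle libraries, 92.9, 112 and 79.2 TPM in the MCF-10A vesicle libraries and 49.9, 77.8 and 86.6 TPM in the PBS libraries. The MDA-MB-231 vesicle values lie below every MCF-10A EV value and within the PBS range, with a log2 change of -0.44 ± 0.37 against MCF-10A EV (limma adjusted p of 1). Psmb6 was at 219, 274 and 257 TPM with MDA-MB-231 vesicles, 213, 334 and 295 TPM with MCF-10A vesicles and 177, 289.7 and 290.1 TPM with PBS, with overlapping groups. Psmb7, the trypsin-like subunit, was at 127, 102 and 23.6 TPM with MDA-MB-231 vesicles, 122, 84.3 and 64.4 TPM with MCF-10A vesicles and 13.3, 86.2 and 65.9 TPM with PBS. The lowest 2 of these are MDA-MB-231 EV 3 and PBS 1. Psmb7 overlaps exons of Nek6 on the opposite strand.

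**Figure D3:**
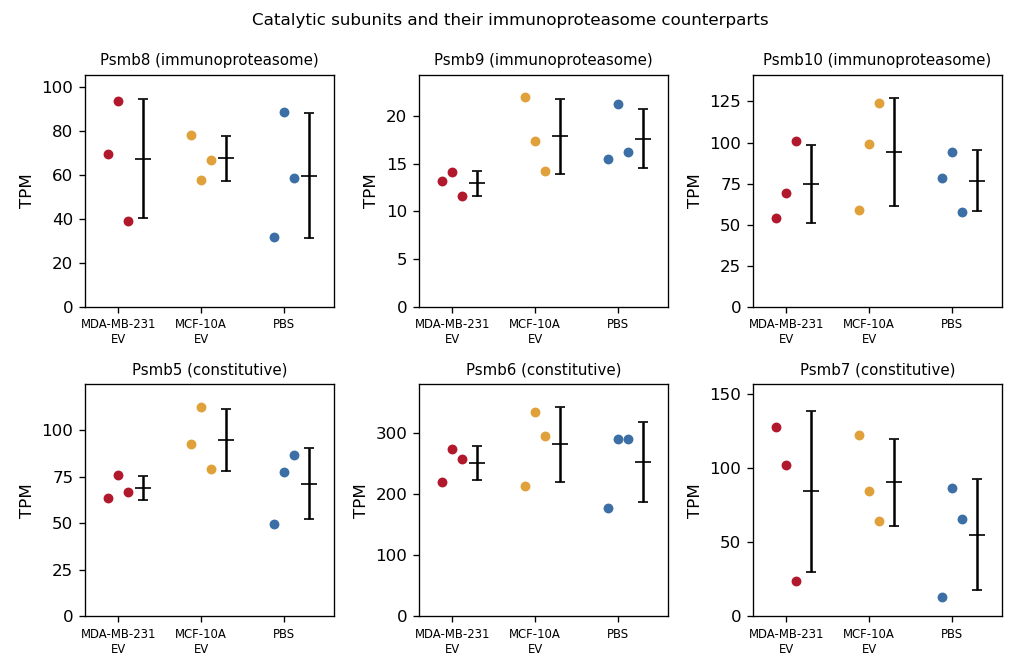
TPM of the 3 immunoproteasome genes (top) and the subunits they replace (bottom), with a point per library and the mean ± SD of 3 libraries as a bar. Psmb9 is at 11.6 to 14.1 TPM with MDA-MB-231 vesicles and at 14.2 TPM or more in the other groups.

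The share of each catalytic pair held by the immunoproteasome gene does not depend on the scaling of a library. Psmb8 held 48.0 ± 9.73% of the summed TPM of Psmb8 and Psmb5 with MDA-MB-231 vesicles, 41.8 ± 6.78% with MCF-10A vesicles and 44.2 ± 7.88% with PBS (SD, n = 3 each). Psmb9 held 4.96 ± 0.689% of the sum of Psmb9 and Psmb6 with MDA-MB-231 vesicles, 6.29 ± 2.65% with MCF-10A vesicles and 6.73 ± 1.40% with PBS. Its transcript was thus the minor one of the pair in every library, at 4.30% to 9.35%. Psmb10 held 50.5 ± 27.0% of the sum of Psmb10 and Psmb7 with MDA-MB-231 vesicles, 50.8 ± 16.9% with MCF-10A vesicles and 61.5 ± 21.0% with PBS. The highest shares of Psmb10 were 81.1% in MDA-MB-231 EV 3 and 85.5% in PBS 1, against at most 65.8% elsewhere. Over the 3 pairs and 3 comparisons, 9 two-sided exact permutation tests gave p from 0.2 to 1.0, all with an adjusted p of 1, and 3 against 3 cannot go below 0.1.

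**Figure D4:**
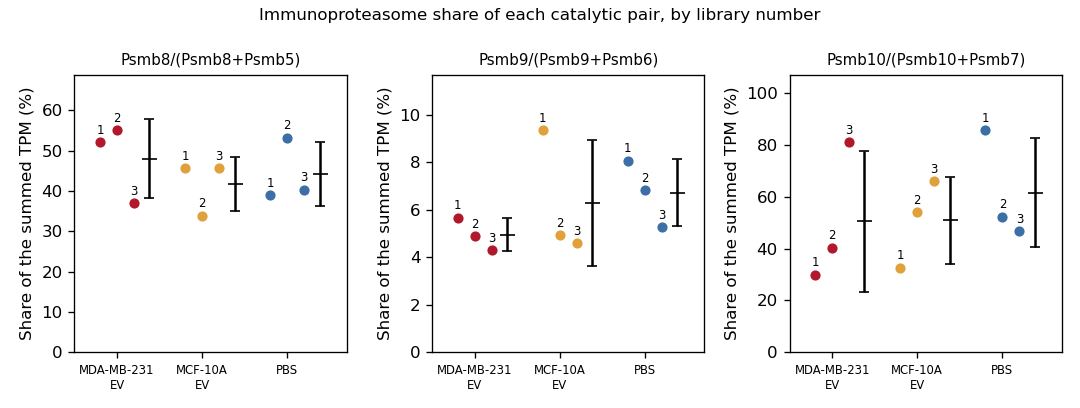
Share of the summed TPM of each catalytic pair held by the immunoproteasome gene, in percent, with a numbered point per library and the mean ± SD of 3 libraries as a bar. The Psmb10 share is 81.1% in MDA-MB-231 EV 3 and 85.5% in PBS 1, the highest of the 9.

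Among the other core genes, Psma3, an alpha ring subunit, had the smallest p. It was at 79.1, 126 and 121 TPM in the MDA-MB-231 vesicle libraries, 181, 227 and 229.6 TPM in the MCF-10A vesicle libraries and 96.6, 159 and 156 TPM in the PBS libraries. The MCF-10A vesicle values lie above all others. The log2 change was -0.98 ± 0.39 for MDA-MB-231 over MCF-10A vesicles and 0.65 ± 0.39 for MCF-10A vesicles over PBS, neither of which passed (limma adjusted p of 1). The change for MCF-10A vesicles over PBS was 0.42 without PBS 1. The beta subunit Psmb1, which carries no proteolytic site, was at 114, 216 and 118 TPM with MDA-MB-231 vesicles, 103, 88.7 and 84.6 TPM with MCF-10A vesicles and 52.0, 227 and 140.3 TPM with PBS. Its MDA-MB-231 vesicle values lie above the MCF-10A vesicle values, and the PBS values span both. Psmb2, a beta subunit without a proteolytic site, was at 85.8, 81.3 and 20.8 TPM with MDA-MB-231 vesicles, 92.7, 48.0 and 44.6 TPM with MCF-10A vesicles and 14.3, 70.4 and 55.3 TPM with PBS. The alpha subunit Psma1 was at 63.0, 44.9 and 20.5 TPM with MDA-MB-231 vesicles, 71.7, 43.7 and 41.1 TPM with MCF-10A vesicles and 17.7, 46.0 and 36.5 TPM with PBS. Psma6, another alpha subunit, was at 90.5, 91.6 and 39.4 TPM with MDA-MB-231 vesicles, 99.1, 65.2 and 63.0 TPM with MCF-10A vesicles and 25.1, 91.4 and 57.7 TPM with PBS. In all 3, MDA-MB-231 EV 3 and PBS 1 are the lowest libraries.

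As a list, the core lay above 0 for MCF-10A vesicles over PBS for 13 of 14 genes, with a median log2 change of 0.37, beside 56.8% of all tested genes and their median of 0.067. Without PBS 1 the same count was 7 of 14 and the median -0.017, beside 61.9% and 0.096 for all genes of that fit. For MDA-MB-231 vesicles over PBS, 10 of 14 core genes were above 0 with a median of 0.21, beside 69.7% and 0.21 for all genes. Without PBS 1 this was 1 of 14, with a median of -0.19, beside 74.9% and 0.28 for all genes of that fit. For MDA-MB-231 over MCF-10A vesicles, 3 of 14 were above 0 with a median of -0.15, beside 65.0% and 0.17 for all genes, and 8 of 14 with a median of 0.090 without MDA-MB-231 EV 3, beside 55.2% and 0.075. The directions of the core list thus rest on single libraries. The 3 immunoproteasome genes had medians of -0.056, -0.31 and 0.25 for MDA-MB-231 vesicles over PBS, MDA-MB-231 over MCF-10A vesicles and MCF-10A vesicles over PBS. All tested genes had medians of 0.21, 0.17 and 0.067. With single libraries left out the immunoproteasome medians ran from -0.29 to 0.14, from -0.35 to -0.081 and from -0.073 to 0.41, so the first and the last change sign. Without PBS 1 their median for MCF-10A vesicles over PBS was -0.073, with 1 of 3 genes above 0, beside 0.096 and 61.9% for all genes. For MDA-MB-231 vesicles over PBS their median was 0.14 without MDA-MB-231 EV 1, beside 0.12 for all genes.

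The 19S cap had medians of 0.43 for MDA-MB-231 vesicles over PBS, 0.18 for MDA-MB-231 over MCF-10A vesicles and 0.14 for MCF-10A vesicles over PBS, with 14, 13 and 12 of 17 genes above 0, beside 69.7%, 65.0% and 56.8% of all genes. The medians of all tested genes were 0.21, 0.17 and 0.067. The sizes of the cap medians rest on single libraries. For MDA-MB-231 vesicles over PBS the cap median was 0.22 without PBS 1, 0.28 without MDA-MB-231 EV 1 and 0.69 without MDA-MB-231 EV 3. All genes of those fits had medians of 0.28, 0.12 and 0.12. For MDA-MB-231 over MCF-10A vesicles the cap median was 0.051 without MCF-10A EV 3, 0.33 without MDA-MB-231 EV 3 and 0.41 without MCF-10A EV 1. All genes had 0.13, 0.075 and 0.33 there. For MCF-10A vesicles over PBS the cap median ran from 0.033 without PBS 1 to 0.34 without MCF-10A EV 3, beside 0.096 and 0.085 for all genes. Without PBS 1, 9 of 17 cap genes were above 0, beside 61.9% of all genes. Psmd12, a lid subunit, was at 38.2, 56.1 and 111 TPM in the MDA-MB-231 vesicle libraries, 47.9, 35.6 and 24.5 TPM in the MCF-10A vesicle libraries and 76.7, 67.2 and 79.9 TPM in the PBS libraries. Every MCF-10A EV value lies below every PBS value, which was so for 4.74% of tested genes. The log2 change for MCF-10A vesicles over PBS was -1.08 ± 0.46, with a limma adjusted p of 1. With limma's array weights, which weight libraries by their spread, it was -1.40 ± 0.23 with an adjusted p of 0.0043, where 548 genes in all were called.

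Psmd1, a scaffold subunit of the cap, was at 36.8, 13.2 and 32.0 TPM in the MDA-MB-231 vesicle libraries, 23.0, 11.8 and 14.9 TPM in the MCF-10A vesicle libraries and 9.68, 11.4 and 13.4 TPM in the PBS libraries. MDA-MB-231 EV 2 lies within the PBS range, and the log2 change against PBS was 1.07 ± 0.45 (limma adjusted p of 1). The lid subunit Psmd13 was at 35.5, 41.9 and 4.20 TPM with MDA-MB-231 vesicles, 38.4, 5.67 and 5.22 TPM with MCF-10A vesicles and 3.65, 21.4 and 5.44 TPM with PBS. It spans an 11.5-fold range, the widest of the members, and its libraries of 21.4 TPM or more come from all 3 groups. Psmd13 overlaps exons of Sirt3 on the opposite strand, 1 of 11 members with such an overlap in GENCODE M21. Psmb8, Psmd1, Psmd3, Psmd9 and Psme1 are also among these 11. On the same strand, Psmd1 overlaps exons of Gm21972, Psmb5 those of the microRNA gene Mir686 and Psmg3 those of Gm26938. The log2 change was 1.20 ± 0.97 against PBS and 0.77 ± 0.97 against MCF-10A EV. Single libraries decide their size: leaving out MDA-MB-231 EV 2 gave 0.65 and 0.23, the lowest of the 9 such values, and leaving out MDA-MB-231 EV 3 gave 2.18 and 1.75, the highest.

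The ubiquitin receptor Psmd4 was at 72.6, 92.8 and 240.0 TPM with MDA-MB-231 vesicles, 92.9, 152 and 213 TPM with MCF-10A vesicles and 153, 133 and 122 TPM with PBS, with overlapping groups. The non-ATPase subunit Psmd3 was at 47.7, 45.4 and 26.5 TPM with MDA-MB-231 vesicles, 34.4, 22.1 and 17.1 TPM with MCF-10A vesicles and 17.2, 39.9 and 33.2 TPM with PBS. Neither separates the groups. Among the ATPases of the base, which unfold the substrate, Psmc1 was at 85.9, 58.6 and 48.3 TPM with MDA-MB-231 vesicles, 72.1, 26.6 and 23.6 TPM with MCF-10A vesicles and 25.4, 55.0 and 29.1 TPM with PBS. The log2 change of Psmc1 was 0.84 ± 0.51 against PBS, and that of Psmc6 -0.39 ± 0.36, or -0.21 without PBS 1 and -0.24 without MDA-MB-231 EV 2. Psmc6 was at 29.9, 20.5 and 26.5 TPM with MDA-MB-231 vesicles, 36.1, 29.4 and 30.4 TPM with MCF-10A vesicles and 43.4, 26.6 and 32.5 TPM with PBS. Psmc4 stood at 133 TPM in MDA-MB-231 EV 3 and at 53.2 to 74.5 TPM in the other 8 libraries. The cap assembly factor Psmd9 was at 37.6, 21.9 and 7.50 TPM with MDA-MB-231 vesicles, 10.6, 6.28 and 6.44 TPM with MCF-10A vesicles and 6.59, 13.0 and 5.95 TPM with PBS. Its log2 change was 1.11 ± 0.56 against PBS and 1.19 ± 0.56 against MCF-10A EV. Without MDA-MB-231 EV 1 these were 0.62 and 0.70, and without MDA-MB-231 EV 3 1.72 and 1.80. The value of MDA-MB-231 EV 3 lies within the ranges of both other groups.

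The balance of cap to core transcripts set the same 2 libraries apart. Core genes summed to 1536, 1687 and 1292 TPM in the MDA-MB-231 vesicle libraries, 1702, 1738 and 1515 TPM in the MCF-10A vesicle libraries and 820.5, 1794 and 1638 TPM in the PBS libraries. Cap genes summed to 888, 813 and 1018 TPM with MDA-MB-231 vesicles, 891, 711 and 736 TPM with MCF-10A vesicles and 651, 833 and 726 TPM with PBS. The ratio of cap to core was 0.787 in MDA-MB-231 EV 3 and 0.794 in PBS 1, and 0.409 to 0.578 in the other 7 libraries. Taken over nuclear genes alone, the core held 0.116% of TPM in PBS 1 and 0.157% in MDA-MB-231 EV 3, against 0.167% to 0.208% in the others, so the low core sum of PBS 1 is also seen without its mitochondrial transcripts. The part of the Xist level and of RNA quality in this was not tested.

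**Figure D5:**
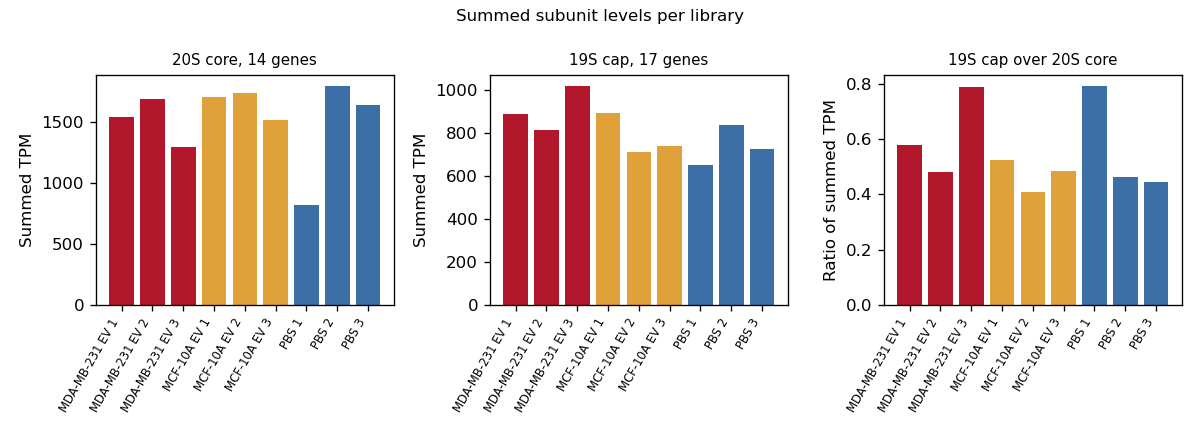
Bars give, per library, the summed TPM of the 14 core genes, that of the 17 cap genes and the ratio of cap to core. MDA-MB-231 EV 3 and PBS 1 have ratios of 0.787 and 0.794, above the 0.409 to 0.578 of the other 7 libraries.

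The activators and the inhibitor of the core varied least of the subcomplex lists, with a median ratio of highest to lowest library of 1.86. Psme2, which with Psme1 forms the interferon-inducible ring PA28, was at 121, 191 and 170.5 TPM in the MDA-MB-231 vesicle libraries, 207, 221 and 270.5 TPM in the MCF-10A vesicle libraries and 171, 166 and 173 TPM in the PBS libraries. The MCF-10A vesicle values lie above all others, with log2 changes of -0.54 ± 0.36 for MDA-MB-231 over MCF-10A vesicles and 0.44 ± 0.36 for MCF-10A vesicles over PBS. The change of Psme2 for MDA-MB-231 over MCF-10A vesicles was -0.35 without MDA-MB-231 EV 1. Psme1 was at 127, 153 and 117 TPM with MDA-MB-231 vesicles, 148, 123 and 131 TPM with MCF-10A vesicles and 82.1, 115 and 130.3 TPM with PBS, and does not separate the groups. Psme3, the nuclear PA28 gamma, was at 19.8, 19.8 and 18.8 TPM with MDA-MB-231 vesicles, 20.8, 17.3 and 17.2 TPM with MCF-10A vesicles and 12.7, 15.8 and 16.5 TPM with PBS. Both EV groups lie above PBS, by log2 changes of 0.36 ± 0.32 for MDA-MB-231 EV and 0.29 ± 0.32 for MCF-10A EV, the second being 0.18 without PBS 1. All these changes had a limma adjusted p of 1. Psme4, which encodes PA200, was at 13.2, 5.44 and 7.65 TPM with MDA-MB-231 vesicles, 10.2, 4.36 and 4.91 TPM with MCF-10A vesicles and 6.54, 6.20 and 5.79 TPM with PBS, with overlapping groups.

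Of the core assembly chaperones, Psmg1 was at 23.3, 22.2 and 31.6 TPM with MDA-MB-231 vesicles, 19.8, 22.6 and 18.8 TPM with MCF-10A vesicles and 19.7, 21.4 and 18.6 TPM with PBS. Its MDA-MB-231 vesicle values lie above PBS, with a log2 change of 0.34 ± 0.33 (limma adjusted p of 1), or 0.19 without MDA-MB-231 EV 3. Psmg3 was at 21.4, 23.9 and 8.19 TPM with MDA-MB-231 vesicles, 16.4, 6.51 and 11.2 TPM with MCF-10A vesicles and 6.90, 21.6 and 11.7 TPM with PBS. Psmg4 was at 28.6, 43.5 and 47.1 TPM with MDA-MB-231 vesicles, 42.8, 62.9 and 57.4 TPM with MCF-10A vesicles and 29.8, 43.6 and 46.6 TPM with PBS. Neither separates the groups. Counted over all members, 2 lay wholly higher in MDA-MB-231 EV than in PBS (Psme3 and Psmg1) where 5.23% of genes did, and 1 wholly lower (Psmb9) where 0.801% did. Against MCF-10A EV, 1 was wholly higher in MDA-MB-231 EV (Psmb1) where 4.73% of genes were, and 4 wholly lower (Psma3, Psmb5, Psmb9 and Psme2) where 1.80% were. For MCF-10A vesicles over PBS, 3 were wholly higher (Psma3, Psme2 and Psme3) where 2.95% of genes were, and 1 wholly lower (Psmd12) where 4.74% were.

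Regulators and partners gave no called gene. Of 17 tested genes of interferon regulation and antigen processing, 11 were above 0 for MDA-MB-231 vesicles over PBS, 6 for MDA-MB-231 over MCF-10A vesicles and 14 for MCF-10A vesicles over PBS, beside 69.7%, 65.0% and 56.8% of all genes, with 0 called by limma and 0 at an unadjusted p under 0.05 in each. The median over the 18 listed genes was 6.5 TPM in MCF-10A EV 2 and 7.07 TPM in MCF-10A EV 3. Both lie within the PBS range of 6.46 to 8.23 TPM, and MCF-10A EV 1 lies above it. The part of MCF-10A EV 1, the library with high leukocyte markers, in these counts was not tested. B2m, the light chain of MHC class I, was at 2202, 4024 and 1533 TPM in the MDA-MB-231 vesicle libraries, 2532, 4407 and 5875 TPM in the MCF-10A vesicle libraries and 3029.7, 3848 and 4760 TPM in the PBS libraries. Nfe2l1 was at 53.2, 25.1 and 15.8 TPM with MDA-MB-231 vesicles, 28.2, 20.1 and 20.2 TPM with MCF-10A vesicles and 19.8, 18.9 and 16.8 TPM with PBS. B2m does not separate the groups. The MCF-10A vesicle values of Nfe2l1 all lie above those of PBS, by a small margin, with a log2 change of 0.27 ± 0.45. Groups separated in this direction for 2.95% of all tested genes. The MDA-MB-231 vesicle values of Nfe2l1 overlap both other groups. Pomp, the chaperone that completes the core, was at 48.4 TPM in MDA-MB-231 EV 3 and 21.1 TPM in PBS 1, against 84.7 TPM or more elsewhere. Among partners, the ubiquitin receptor Adrm1 had a log2 change of 0.63 ± 0.36 for MDA-MB-231 vesicles over PBS. Erap1, which trims peptides for MHC class I, had 1.07 ± 0.70 in the same comparison. It belongs to the list of interferon regulation and antigen processing, whose changes there ran from -0.68 to 1.07. Adrm1 was at 0.40 without PBS 1, and Erap1 at 0.21 without MDA-MB-231 EV 1 and 1.69 without MDA-MB-231 EV 3. Of 18 partners, 8 genes of NRF1 regulation and 5 tested genes of ubiquitin supply, 0 were called by limma in any comparison, and 0 had an unadjusted p under 0.05.

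Correlations across the 9 libraries were computed for 12 pairs of genes, and none passed. Psmb8 with Psmb5 gave a Pearson r of 0.51 (exact permutation p = 0.163, adjusted 0.769) and a Spearman rho of 0.18 (exact permutation p = 0.644, adjusted 0.972). Without the 2 libraries farthest from the median of Psmb8, MDA-MB-231 EV 3 and PBS 1, r was -0.44, so the sign rests on them. Psmb10 with Psmb7 gave r = -0.36 (exact permutation p = 0.354, adjusted 0.769) and rho = -0.62 (exact permutation p = 0.0857, adjusted 0.885), and r = -0.33 without the 2 farthest. Psmb9 with its neighbour Tap1 gave r = -0.24 (exact permutation p = 0.528, adjusted 0.769) and rho = -0.22 (exact permutation p = 0.581, adjusted 0.972), and r = -0.53 without the 2 farthest.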

How the data were processed

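Liver RNA of 9 NSG mouse samples was sequenced after TruSeq RNA library preparation, per the labels' protocols. The authors deposited TPM per gene and library; HISAT2, StringTie, RSEM and GRCm39 are named in the submitters' processing notes, without versions or order of use. These values were taken without change; since TPM holds no depth, no counting interval is given. Each column matched 1 sample, and 0 columns of samples were left unused.

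log2(TPM + 1) of Ensembl features with a mean of at least 1 TPM, 12860 in all, was fitted with limma 3.58.1 (R 4.3.3): a mean per group, trended prior variance, two-sided tests and Benjamini-Hochberg adjustment over all tested genes per comparison, called under 0.05. Fold changes on this scale understate those of low genes. The fit was checked on simulated data, where recovery of added changes was required only at a fixed spread. How many true changes are found at the spread of these libraries is not given. A lack of calls therefore does not show unchanged levels. Shares and correlations used exact permutation tests (scipy 1.17.1). Loci assembled from the reads were not used here.

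The members, lists and tests were chosen with earlier results of these data known. Genes named are the catalytic, tissue-specific and activator genes and, per comparison, the 5 members with the largest rise and the 5 with the largest fall among those of at least 5 TPM on average, with others singled out after their values were seen. Of each list of other pathway genes, the rule names up to 3 with the smallest p, most of which are given by count. Same-numbered libraries of the 2 vesicle groups deviated together over the tested genes (r = 0.336, 0.110 and 0.436), all above the mark of 0.1 taken for pairing. Same-numbered pairs with PBS ran from -0.389 to 0.500, and the labels give no shared batch or day. Different-numbered pairs of the 2 vesicle groups ran from -0.337 to 0.116, so the lowest same-numbered value is no higher than a mismatched one. The largest r of all, 0.625, was between PBS 1 and MDA-MB-231 EV 3. Lists are described by counts and medians. Alternatives were the pseudocount, filter, scaling, quantile normalization, array weights, fitting the compared groups alone, the replicate number as a block, and leaving out libraries. Leaving out both MDA-MB-231 EV 3 and PBS 1 in the correlations, and the block fitted on the vesicle groups alone, were added after the data were seen. Exon overlaps came from GENCODE M21 (GRCm38) and promoter windows from RefSeq (GRCm38.p6), builds other than that of the TPM.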

Additional observations from a re-analysis of the deposited data

How the results depend on the processing

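The count of members called by limma was 0 under every alternative in all 3 comparisons, except 1 (Psmd12) with array weights for MCF-10A vesicles over PBS. Replicate numbers paired the MDA-MB-231 and MCF-10A vesicle libraries and not those of PBS. With the replicate number as a block, 0 members were called in each comparison, and 0, 15 and 20 genes in all for MDA-MB-231 vesicles over PBS, MDA-MB-231 over MCF-10A vesicles and MCF-10A vesicles over PBS, beside 0, 28 and 25 without it. The block changed no call among the members. With quantile normalization the median of all genes was 0.035 for MDA-MB-231 vesicles over PBS (0.21 as deposited) and -0.0023 for MDA-MB-231 over MCF-10A vesicles (0.17 as deposited). The unknown depth leaves the precision of low members unknown. Below are only settings that reversed a sign, or moved the median of the core, cap or immunoproteasome list beyond its spread within groups. Ranges are given where leaving out a single library did so. The cause of the changes below was not tested.

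For MDA-MB-231 vesicles over PBS, the main fit gave 0.019 for Psmb6, 0.20 for Psmb8 and -0.056 for Psmb10. Psmb6 was at -0.11 rescaled over nuclear genes, -0.22 with quantile normalization, -0.21 with array weights and -0.24 without MDA-MB-231 EV 3 and PBS 1. Psmb8 was at -0.058 with quantile normalization, and Psmb10 at 0.098 with array weights. Leaving out single libraries gave ranges of -0.19 to 0.52 for the median of the 20S core, -0.15 to 1.40 for Psmb7, -0.22 to 0.14 for Psmb6, -0.18 to 0.54 for Psmb8, -0.25 to 0.14 for Psmb5, -0.29 to 0.15 for Psmb10, -0.67 to 0.085 for Psmd12 and -0.71 to 0.14 for Psmd4.

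For MDA-MB-231 over MCF-10A vesicles, the median of the 19S cap was -0.13 with quantile normalization and 0.55 with array weights. The main fit gave -0.36 for Psmb7 and -0.078 for Psmb8. Psmb7 was at 0.25 and Psmb8 at 0.14 with array weights, and at 0.38 and 0.26 without MDA-MB-231 EV 3 and PBS 1. Ranges over single libraries left out were -0.35 to 0.26 for Psmb8 and -0.81 to 0.38 for Psmb7.

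For MCF-10A vesicles over PBS, the main fit gave 0.59 for Psmb2, -0.12 for Psmc4, 0.17 for Psmb6, 0.28 for Psmb8 and 0.0086 for Psmb9. Array weights gave -0.073 for the median of the 20S core, -0.19 for Psmb2, 0.064 for Psmc4 and -0.10 for Psmb9, which was at -0.098 rescaled over nuclear genes. Without MDA-MB-231 EV 3 and PBS 1 the values were -0.017 for the core, -0.095 for Psmb2, -0.071 for Psmb6, -0.10 for Psmb8 and -0.073 for Psmb9. Ranges over single libraries left out were -0.017 to 0.64 for the core, -0.095 to 1.01 for Psmb2, -0.071 to 0.35 for Psmb6, -0.10 to 0.62 for Psmb8, -0.14 to 0.15 for Psmb9, -0.95 to 0.10 for Psmb1 and -0.54 to 0.22 for Psmg3.

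Differences of shares, in percentage points, ranged over single libraries left out from -5.03 to 2.13 for Psmb8 for MCF-10A vesicles over PBS. For Psmb9 they ran from -2.18 to 0.193 for MDA-MB-231 over MCF-10A vesicles and from -1.96 to 0.415 for MCF-10A vesicles over PBS. For Psmb10 they ran from -26.4 to 0.990 for MDA-MB-231 vesicles over PBS, from -15.7 to 9.91 for MDA-MB-231 over MCF-10A vesicles and from -18.2 to 1.35 for MCF-10A vesicles over PBS. Without MDA-MB-231 EV 3 and PBS 1, MCF-10A vesicles over PBS gave 0.239 for Psmb9 and 1.35 for Psmb10. As a log2 ratio, Psmb10 to Psmb7 differed by 0.059 for MDA-MB-231 over MCF-10A vesicles.

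Over all 9 libraries, Pearson r was -0.145 for Psmb9 with Psmb10, -0.150 for Psmb8 with Tap1 and -0.185 for Psmb10 with Tap1. It was 0.043 for Psmb9 with Psmb6 and -0.335 for Psmb5 with Psmc4. Pearson r of Psmb9 with Psmb10 was 0.12 without the MCF-10A vesicle libraries. Without the 2 libraries farthest from the median, r was -0.44 for Psmb8 with Psmb5, 0.38 for Psmb8 with Tap1 and 0.017 for Psmb10 with Tap1. Without MDA-MB-231 EV 3 and PBS 1, r was 0.042 for Psmb9 with Psmb10, -0.44 for Psmb8 with Psmb5, -0.052 for Psmb9 with Psmb6, 0.38 for Psmb8 with Tap1 and 0.26 for Psmb5 with Psmc4.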
